A study of Capra aegagrus with 10 samples.

Results

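Goat mammary gland cells that had been given a virus carrying lncRNA55666 (OV55666) were compared here directly with cells given a virus that inhibits the same transcript (KD553), across their microRNAs (miRNAs). The miRNAs described are the known goat miRNAs and the predicted ones with at least 5 CPM (counts per 1e6 miRNA reads) in 2 or more of the 4 libraries. These were 333 of the 1403 miRNA identifiers in the deposited table, made up of 199 known miRNAs and, for the rest, predicted ones, and the table held 2233 small RNA identifiers in all. No miRNA differed between OV55666 and KD553 past an adjusted p of 0.05. By value, 125 of the 199 known members were lower in OV55666, and of the predicted members 101 were higher and 33 lower there. Over all tested miRNAs 39.2% of the known and 73.5% of the predicted ones were higher there, so the members stood close to that background. The filter took in 19 predicted members through OV55666 only, and these had to be higher there before scaling. Among members at 5 CPM in all 4 libraries, 114 of 181 known were lower and 51 of 74 predicted were higher in OV55666.

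A miRNA is a short RNA that loads into an Argonaute protein and represses messenger RNAs whose untranslated regions pair with its seed, the bases near its 5′ end. It is cut from a hairpin by Drosha and then Dicer, and either arm (5p or 3p) can be loaded, although most hairpins favour 1 arm, the guide. Long noncoding RNAs (lncRNAs) can bind miRNAs, host their hairpins or regulate transcription. In the mammary gland, miRNAs have been linked to epithelial growth, to milk fat synthesis and to the passage through lactation. A predicted miRNA is a hairpin product proposed from sequencing reads and carries a running number in place of a name, so no role is given for the predicted members. Whether any of them matches a named miRNA of another species was not tested. Sequences of the members were not used here.

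The study sequenced the small RNA of mammary gland cells of the Lanshan dairy goat, labelled as Capra aegagrus and cultured in 3D, in 10 libraries of 5 groups with 2 libraries each. OV55666 cells received the overexpression virus, KD553 cells the knockdown virus, Lv5NC and Lv3NC cells a control virus each, and Blank cells no named virus. The design text lists 5NC beside the overexpression and 3NC beside the knockdown, so OV55666 and KD553 were read against different control viruses, and the direct difference also holds any difference between the vectors. All groups share the breed, the tissue and the 3D culture, and OV55666 and KD553 share the receipt of a virus. The promoter, the knockdown sequence, the dose of virus, the meaning of 553, and the animals or cultures behind each library were not stated in the labels. The p-values therefore measure the spread between libraries, which may be technical. The lncRNA itself is not among the small RNAs of the table, so its level in either group was not analysed here.

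Total reads in the table were 20344191 and 19912497 in the OV55666 libraries and 22288511 and 24431686 in the KD553 libraries. Of these, 5247734 and 4875135 reads in OV55666 and 5673073 and 3963712 reads in KD553 fell on miRNAs, so that 1 read stood for 0.171 to 0.292 CPM. Across the 333 members, log2 levels correlated at r = 0.943 between the OV55666 libraries and 0.918 between the KD553 libraries. The value between OV55666 replicate 1 and KD553 replicate 1 was 0.962, above both of those within-group values, and the values of KD553 replicate 2 with the OV55666 libraries were 0.869 and 0.873. These are correlations across miRNAs, which share library and abundance order and are not independent replicates.

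KD553 replicate 2 stood apart from the other 3 libraries. It was at least 2-fold above each of them for 34 known and 1 predicted members, and at least 2-fold below each of them for 16 known and 47 predicted members. The same counts for KD553 replicate 1 were 2 and 0 above, and 3 and 2 below. For OV55666 replicate 1 they were 2 and 16 above and 7 and 3 below, and for OV55666 replicate 2 they were 4 and 5 above and 8 and 4 below. For the 24 members described singly, the value without a library is given where it was smaller by more than 1.5 times, and for list medians the range with each of the 4 libraries left out in turn.

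In bulk RNA, fewer cells of a type and less of an RNA per cell cannot be told apart. Of the 6 epithelial marker miRNAs, 5 had an identifier and none was at 0 in all 4 libraries. Their summed level was low, at 8.88 and 23.2 CPM in OV55666 and 6.95 and 78.0 CPM in KD553, although the tissue is labelled mammary gland. The 6 stromal and smooth muscle markers summed to 14880 and 14400 CPM in OV55666 and 18000 and 11710 CPM in KD553. Blood markers, 4 of 7 with an identifier, summed to 330 and 938 CPM against 599 and 2098 CPM, with the highest value in KD553 replicate 2. Both endothelial markers together gave 30.4 and 102 CPM against 46.8 and 41.8 CPM, and the 4 striated muscle markers 204.9 and 273 CPM against 384 and 209 CPM. miR-141 was at 0 in KD553 replicate 1 and miR-206 in OV55666 replicate 1. The part of these markers in the results was not tested.

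The first question was whether any miRNA separates the overexpression from the knockdown cells. Levels were compared with limma on log2(CPM + 1), fitted to 448 miRNAs over all 10 libraries, with p-values adjusted over those 448. The call rate at an adjusted p of 0.05 was 0% in either direction, and the smallest adjusted p was 0.517. At an unadjusted p under 0.05 there were 29 of 448 miRNAs (6.47%), 21 higher (4.69%) and 8 lower (1.79%) in OV55666, of which 22 were members (16 higher and 6 lower). Without KD553 replicate 2 this number was 11, without OV55666 replicate 2 it was 14, and without KD553 replicate 1 it was 82. The median standard error (SE) of a log2 difference was 0.81 over all tested miRNAs and 0.607 over known members.

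The levels of OV55666 and KD553 did not overlap for 158 of the 333 members (47.4%), against 42% of all 448 tested miRNAs. Both OV55666 libraries were above both KD553 libraries for 87 members, where the rate over all tested was 24.6%. Both KD553 libraries were above for 71 members, where that rate was 17.4%. By kind, 24 known members were higher and 54 lower in OV55666 without overlap, and 63 predicted members were higher and 17 lower. Some predicted members passed the filter only through OV55666. Among members at 5 CPM in all 4 libraries, the counts were 21 and 52 of 181 known and 26 and 11 of 74 predicted miRNAs. The rates without overlap over all tested miRNAs of each kind were not counted, so the counts by kind are not read as a result about the members. Over all tested miRNAs 39.2% of the known and 73.5% of the predicted ones were higher in OV55666, overlapping or not.

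**Figure D1:**
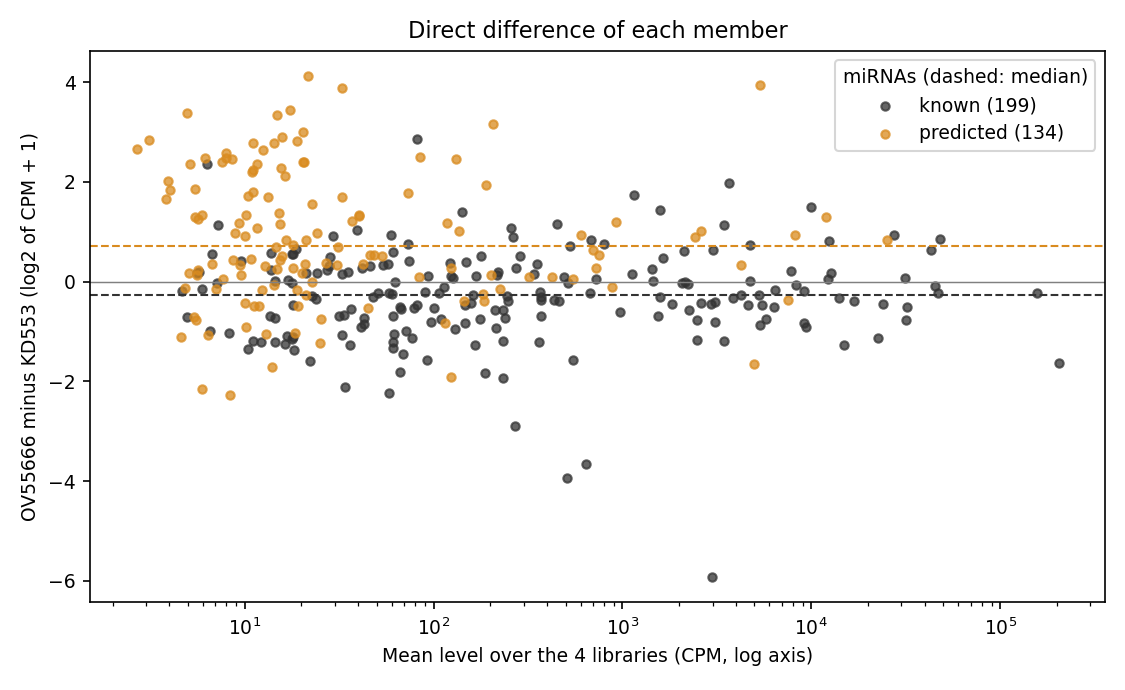
Each point is 1 of the 333 members, with its mean level over the 4 libraries in CPM on a log axis and its OV55666 minus KD553 difference on the log2(CPM + 1) scale; dashed lines are medians. Known members centre at -0.28 and predicted members at 0.71, and none passed an adjusted p of 0.05.

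Known members had a median log2 difference of -0.28, with 74 of 199 higher in OV55666, and predicted members a median of 0.71, with 101 (75.4%) higher. Over all tested miRNAs the median was 0.17, with 56.5% higher and 40.4% lower in OV55666, and with 39.2% of the known and 73.5% of the predicted miRNAs higher in OV55666, so the members stood close to that background. Known and predicted members also differed in direction at high levels. Of the 60 known members above 1000 CPM, 39 were lower in OV55666 (median -0.25), and of the 9 predicted members above 1000 CPM, 7 were higher (median 0.89). When levels were scaled to all reads in the table, as in the authors' TPM columns, the median over all tested miRNAs moved from 0.17 to 0.45 and that of known members turned to 0.25, while that of predicted members became 1.00. Without the TMM factors the median over all tested was 0.40 and that of known members -0.02. Without KD553 replicate 2 the medians were -0.12 for known and 0.44 for predicted members, and without OV55666 replicate 1 they were 0.02 and 1.10.

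The filter took some members in through 1 group. In all 4 libraries 255 members reached 5 CPM and in 3 libraries 40 did. A further 18 reached it in 1 library of each group. Another 20 reached it in both OV55666 libraries only, 19 of them predicted, and 0 in both KD553 libraries only. These 20 had to be higher in OV55666 before scaling. Among the members at the filter in all 4 libraries, the median was -0.28 over 181 known and 0.34 over 74 predicted miRNAs. The member just inside the filter was miR-26b-3p, at 4.38 and 7.79 CPM in OV55666 and 3.70 and 5.05 CPM in KD553 before scaling. The miRNA just outside was miR-146b-5p, at 4.95 and 2.87 CPM in OV55666 and 4.76 and 172 CPM in KD553.

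Predicted miRNAs made up 11.2% and 9.70% of the miRNA reads in the OV55666 libraries. In the KD553 libraries they made up 6.62% and 4.403%, and these shares did not overlap with those of OV55666. The shares were 11.99% and 7.78% in Blank, 23.2% and 12.5% in Lv5NC, and 9.97% and 6.57% in Lv3NC, so KD553 replicate 2 had the lowest share of the 10 libraries, and Lv3NC replicate 2 was the other library below KD553 replicate 1. The 95% Wilson intervals of the read shares given here are at most 0.0469 percentage points to each side and cover counting error only. The share of all reads on RF identifiers (fragments of structural RNAs such as rRNA and snRNA) ran the other way, at 11.97% and 13.72% in OV55666 and 16.20% and 26.27% in KD553. In a fit with this share as a covariate, the predicted median was 0.10 and the known median -0.07. With 2 libraries a group, the share of structural RNA fragments and the virus group cannot be told apart.

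**Figure D2:**
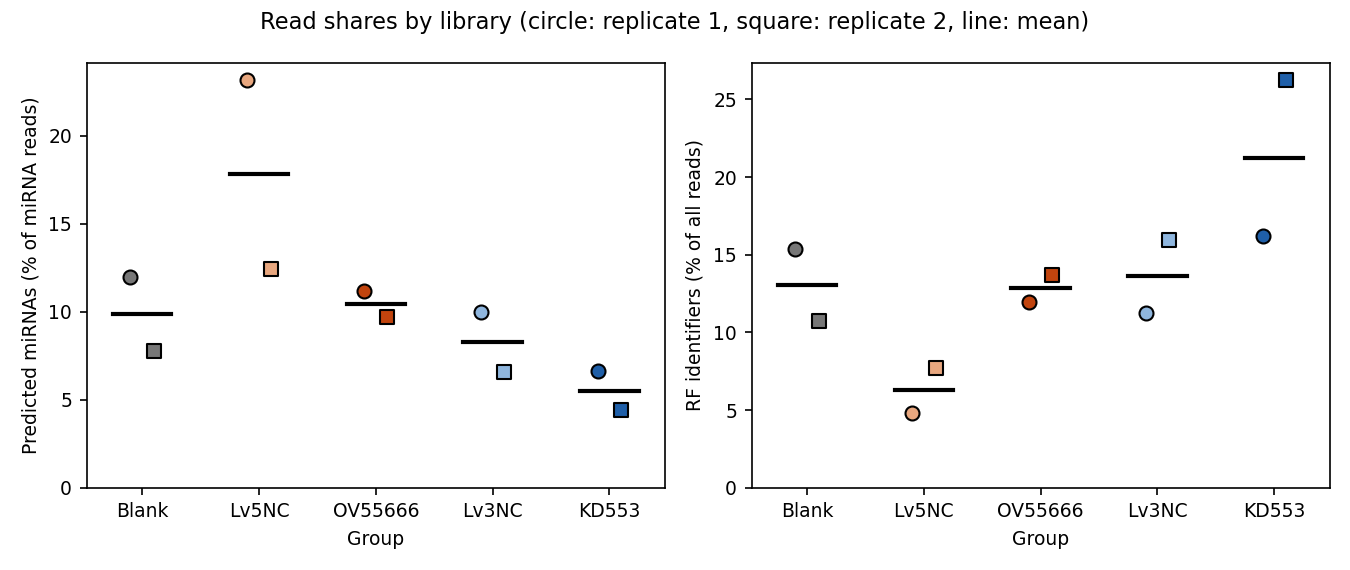
The left panel gives predicted miRNAs as a percentage of miRNA reads and the right panel RF identifiers as a percentage of all reads; each point is a library (circle replicate 1, square replicate 2) and each line a group mean. KD553 has the lowest mean share of predicted miRNAs (5.51%) and the highest mean share of RF identifiers (21.2%).

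How the table lists predicted miRNAs bears on their low values. No predicted miRNA was listed with fewer than 10 reads in any library, whereas known miRNAs were listed down to 1 read, so a blank cell of a predicted miRNA may stand for up to 9 reads. Of the predicted members, 101 were listed in all 4 libraries; 1 and 2 were not listed in the OV55666 libraries and 5 and 28 in the KD553 libraries. KD553 replicate 2 alone lacked 25 of them. With 9 reads put in each blank cell of a predicted miRNA, the predicted median was 0.675 in place of 0.71. The predicted members novel_mir1108, novel_mir452 and novel_mir1244 were listed in both OV55666 libraries and in neither KD553 library. Their counts in OV55666 were 77 and 31 for novel_mir1108, 31 and 25 for novel_mir452, and 31 and 33 for novel_mir1244, and no fold is given for them.

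Taking members that averaged 50 CPM or more, the 24 of smallest p were examined singly. Of these, 12 were lower and 12 higher in OV55666, and the groups did not overlap for 21. Over all 448 tested miRNAs, 42% did not overlap. The 24 were picked by p in this same comparison, so lack of overlap among them is not separate evidence of a difference. Each had an adjusted p of 0.517 in limma. Without KD553 replicate 2 the log2 difference of 11 of these 24 shrank by more than 1.5 times, and without KD553 replicate 1 that of 7 grew by more than 1.5 times. With the share of RF identifiers as a covariate, the difference was 0.02 for miR-455-3p, 0.09 for novel_mir662, 0.13 for miR-143-3p and 0.14 for novel_mir12. It was 0.22 for novel_mir2, -0.26 for miR-146a and miR-26b-5p, and 0.44 for miR-328-3p. Smaller sizes were also found for novel_mir7 (0.96), novel_mir672 (2.58), novel_mir1 (0.50), miR-342-3p (-0.57) and miR-18a-3p (-0.97). The same held for miR-500-5p (-1.03), miR-222-3p (-1.15), miR-320-3p (-1.16) and miR-129-5p (0.95). The sign changed for miR-10a-5p (0.011) and novel_mir5 (-0.15). Larger sizes were found for novel_mir4 (-1.91), novel_mir20 (-1.95), novel_mir19 (1.22), miR-199b-3p (-4.61) and miR-27b-3p (-7.27). The levels of the 24 follow, with the known members first.

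**Figure D3:**
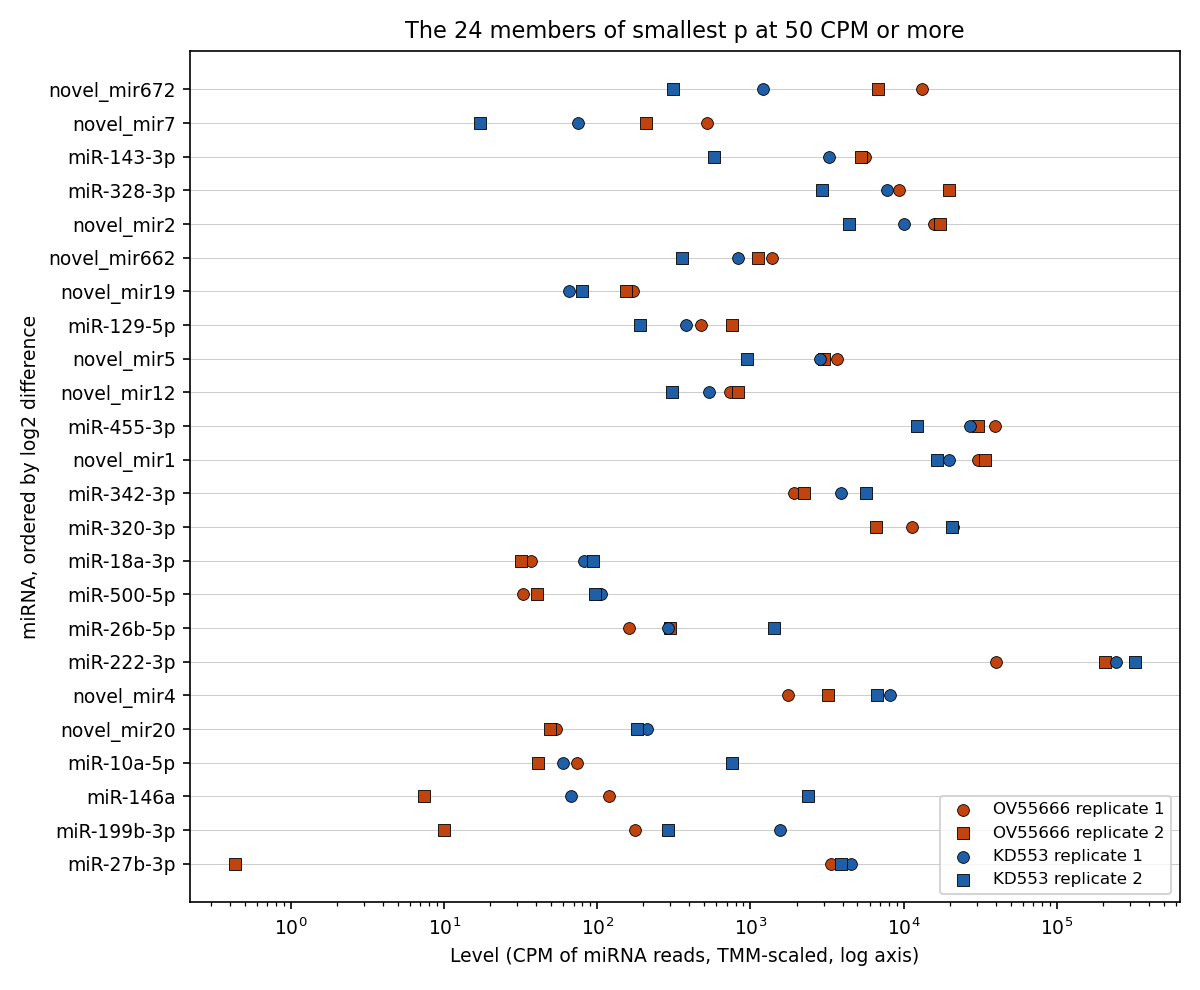
Levels in CPM on a log axis of the 24 members of smallest p at a mean of 50 CPM or more, ordered by log2 difference, with OV55666 in red-brown, KD553 in blue, circles for replicate 1 and squares for replicate 2. The libraries of the groups overlap for miR-26b-5p, miR-146a and miR-10a-5p and lie apart for the other 21. The choice by p favours members that lie apart.

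miR-222-3p was the most abundant member. With miR-221 it represses the cell cycle inhibitor p27 in human cells. It stood at 40144 and 207813 CPM in OV55666 and 244382 and 323126 CPM in KD553. Both KD553 libraries were above both OV55666 libraries, but the OV55666 libraries were further from each other than OV55666 replicate 2 was from KD553 replicate 1. The log2 difference was -1.62 (SE 0.72, 95% interval -3.25 to 0.01), and -0.19 without OV55666 replicate 1. Against the control viruses, the differences were 0.65 for OV55666 minus Lv5NC, 0.49 for KD553 minus Lv3NC and -1.78 for Lv5NC minus Lv3NC. These comparisons share libraries with the direct one.

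miR-320-3p, whose hairpin is made without Drosha in mouse cells, was at 11336 and 6592 CPM in OV55666 and 21041 and 20811 CPM in KD553. Its KD553 libraries lay close together and above both OV55666 libraries. The log2 difference was -1.28 (SE 0.40, 95% interval -2.17 to -0.38, limma adjusted p = 0.517), and -0.88 to -1.42 with 1 library left out. Against the control viruses it stood at -0.09 in OV55666 and at 0.70 in KD553.

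miR-342-3p, which in human lies in an intron of EVL, was at 1919 and 2247 CPM in OV55666 and 3883 and 5712 CPM in KD553. The groups did not overlap and the log2 difference was -1.18 (SE 0.46). The other arm, miR-342-5p, was at 478 and 326 CPM against 549 and 487.1 CPM, again without overlap, with a difference of -0.39 (SE 0.46). For miR-342-3p the Lv5NC minus Lv3NC difference was -2.44 and OV55666 stood 1.77 above its own control virus, so the sign of the direct difference was that of the control viruses and opposite to that of OV55666 against Lv5NC.

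miR-18a-3p is an arm of a hairpin of the growth-promoting miR-17-92 cluster. It was at 37.0 and 31.9 CPM in OV55666 and 81.8 and 93.4 CPM in KD553, a log2 difference of -1.32 (SE 0.48). miR-500-5p, from an X-linked cluster in human, was at 32.8 and 40.3 CPM against 106.1 and 96.9 CPM, a difference of -1.46 (SE 0.67). For both, libraries of a group lay near each other and the groups did not overlap.

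miR-146a, which is induced by NF-kappaB and represses IRAK1 and TRAF6 in human cells, was at 119 and 7.37 CPM in OV55666 and 67.1 and 2363 CPM in KD553. The groups overlapped, since OV55666 replicate 1 was above KD553 replicate 1, and only KD553 replicate 2 was high. The log2 difference was -3.66 (SE 1.80), -1.74 without OV55666 replicate 2 and -1.10 without KD553 replicate 2. miR-10a-5p, from the HOXB gene cluster, was at 74.3 and 41.2 CPM against 60.1 and 753 CPM (-1.93, SE 0.98), and -0.12 without KD553 replicate 2. miR-26b-5p, from an intron of CTDSP1 in human, was at 160 and 296 CPM against 291 and 1433 CPM (-1.56, SE 0.70). Its difference was -0.88 without OV55666 replicate 1 and -0.42 without KD553 replicate 2. All 3 differences were smaller by more than 1.5 times without KD553 replicate 2.

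That library held further high values among known members. In 28 of them it was at least 2-fold above each of the other 9 libraries of the study. miR-21-5p, a widely expressed miRNA that represses PDCD4 in human cells, was at 75630 CPM there and between 6853 and 28970 CPM in the other 9. miR-223-3p, known from myeloid cells, was at 1018 CPM against at most 28.4 CPM. miR-150, known from lymphocytes, was at 743 CPM against at most 103.2 CPM, and miR-424-5p, of the miR-16 seed family, was at 646 CPM against at most 47.5 CPM. miR-451-5p, known from red blood cells, did not share this pattern and was at 337 CPM there, between the 255 and 817 CPM of the OV55666 libraries. These miRNAs were picked after their values were seen.

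Among the known members higher in OV55666, miR-143-3p, a miRNA of smooth muscle and fibroblasts, had the largest difference of the 24. It was at 5639 and 5257 CPM in OV55666 and 3241 and 580 CPM in KD553. The groups did not overlap, and the log2 difference of 1.99 (SE 0.97) was 0.75 without KD553 replicate 2. Its cluster partner miR-145-5p was lower in OV55666, at 1061 and 2087 CPM against 2944 and 3841 CPM (-1.18, SE 0.66), also without overlap. The difference of miR-145-5p was -0.44 without OV55666 replicate 1 and -0.26 with the share of RF identifiers as a covariate. With that covariate the difference of miR-143-3p was 0.13. The Lv5NC minus Lv3NC difference of miR-143-3p was 2.08, while OV55666 and KD553 stood at -0.53 and -0.43 against their own control viruses.

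miR-455-3p, from an intron of the collagen gene COL27A1 in human, was at 39694 and 30513 CPM in OV55666 and 27234 and 12246 CPM in KD553, a log2 difference of 0.93 (SE 0.46). Its 5p arm, at 24.1 and 73.0 CPM against 33.7 and 73.0 CPM, overlapped between the groups. miR-129-5p, best known from the brain, was at 475 and 761 CPM against 378 and 191.3 CPM (1.16, SE 0.51). For both miRNAs KD553 replicate 2 was the lowest library, and without it the differences were 0.35 and 0.67.

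miR-328-3p, which represses the transporter gene ABCG2 in human cell lines, was at 9327 and 19858 CPM in OV55666 and 7802 and 2954 CPM in KD553. The groups did not overlap and the direct log2 difference was 1.503 (SE 0.70, limma adjusted p = 0.517). With 1 library left out it ran from 0.80 without KD553 replicate 2 to 2.29 without OV55666 replicate 1, with 0.96 without OV55666 replicate 2. It was the 1 miRNA called in the test of whether the overexpression and knockdown effects differ, each taken against its own control virus, where the call rate was 0.223% of 448 and 6.25% had an unadjusted p under 0.05. That difference was 13.55 (SE 0.99, limma adjusted p = 9.5e-05). It rested on counts of 6 and 2 reads in Lv5NC, and Blank had 10 and 10, against 65497 and 25623 in Lv3NC and 54633 and 91633 in OV55666. The total of the deposited TPM scale exceeded the listed reads by 23416 and 43506 in the Lv5NC libraries and by 15216 and 59482 in Blank. With those reads given to miR-328-3p, an assignment made after the data were seen, the difference was 1.72 (limma adjusted p = 0.749). The reads came to 6396 and 7178 CPM in Lv5NC, between the 13288 and 4697 CPM of the Lv3NC libraries, so a smaller difference followed from the choice. Where they belong was not tested.

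miR-27b-3p, encoded in a cluster with miR-23b and miR-24 and a repressor of lipid genes such as PPARG, had the largest log2 difference of any member, -5.93 (SE 2.89). It was at 3367 and 0.433 CPM in OV55666 and 4555 and 3927 CPM in KD553. OV55666 replicate 2 alone was low, with 2 reads, and OV55666 replicate 1 was near the KD553 libraries. Without OV55666 replicate 2 the difference was -0.33, and with OV55666 replicate 1 left out instead it was -11.31 (limma adjusted p = 0.000915). The deposited TPM scale of OV55666 replicate 2 exceeded its listed reads by 21116, or 4576 CPM, where the other 3 libraries differed by at most 1 read. With those reads given to miR-27b-3p, an assignment made after the data were seen, the difference was -0.11. As 4576 CPM is near the level of this miRNA in the other libraries, a small difference followed from the choice. Where those reads belong was not tested.

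miR-199b-3p, whose mature sequence in human is the same as that of miR-199a-3p, was at 176 and 9.97 CPM in OV55666 and 1570 and 288 CPM in KD553, a log2 difference of -3.94 (SE 1.71). With 1 library left out it ran from -5.70 (OV55666 replicate 1 removed) to -1.93 (OV55666 replicate 2 removed). The similarly named miR-199c-3p was at 722 and 2946 CPM in OV55666 and 291 and 649 CPM in KD553. miR-199a-3p was at 1087 and 450 CPM against 597 and 751 CPM. Summed, the 3 identifiers stood at 1985 and 3406 CPM in OV55666 and 2457 and 1687 CPM in KD553, with a difference of 0.35, so the sum overlapped where miR-199b-3p did not. The labels do not say how reads were shared among similar miRNAs, and values of single members of such families are uncertain.

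miR-92a-3p and miR-92b, which carry a common seed in human, alternated in the same way. miR-92a-3p was at 52990 and 7424 CPM in OV55666 and 52420 and 15220 CPM in KD553. miR-92b was at 3401 and 62340 CPM in OV55666 and 3415 and 56620 CPM in KD553. The sum was steadier, at 56390 and 69760 CPM against 55840 and 71840 CPM, with a log2 difference of -0.01. miR-92a-3p took 94.0% of the sum in OV55666 replicate 1 and 93.9% in KD553 replicate 1, but 10.6% and 21.2% in the second replicates. The order was the reverse in Blank (11.7% and 93.6%) and Lv5NC (9.92% and 94.1%), and Lv3NC was at 18.9% and 16.6%. Over the 10 libraries the miR-92 sum ran from 34840 to 84090 CPM. The sum of miR-27a-3p and miR-27b-3p was 8440 and 1683 CPM against 5336 and 8462 CPM (-0.83). These sums were chosen after the values were seen.

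**Figure D4:**
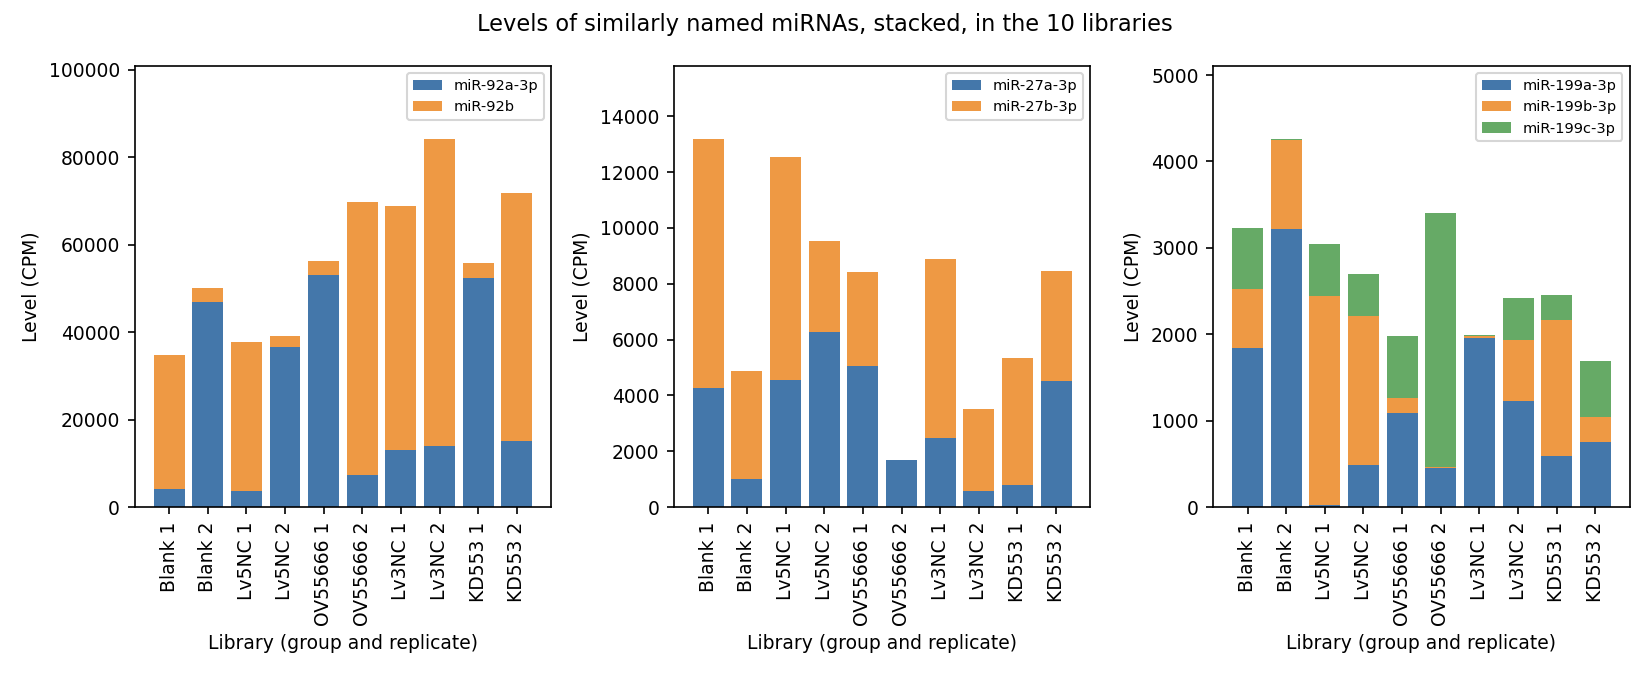
Stacked bars give the CPM of miR-92a-3p with miR-92b, of miR-27a-3p with miR-27b-3p, and of the miR-199 3p arms in the 10 libraries. Bar height is the sum and colour the identifier; the miR-92 sum of the OV55666 and KD553 libraries lies between 55840 and 71840 CPM while its makeup alternates.

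Among predicted members, novel_mir672 had the largest difference of the 24, at 13170 and 6822 CPM in OV55666 and 1207 and 313 CPM in KD553. All OV55666 values were above all KD553 values, and the mean was 13.15-fold higher (9996 ± 4489 against 760 ± 632 CPM, SD, n = 2). The log2 difference was 3.94 (SE 1.25, 95% interval 1.08 to 6.81, limma adjusted p = 0.517). It was called when levels were scaled to all reads (4.49, limma adjusted p = 0.000136). Against the control viruses it stood at -2.30 in OV55666 and at -3.53 in KD553, and Lv5NC minus Lv3NC was 2.72. Across the 10 libraries it ranged from 313 CPM in KD553 replicate 2 to 74335 CPM in Lv5NC replicate 1.

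novel_mir7 was at 521 and 209 CPM in OV55666 and 74.4 and 17.2 CPM in KD553, a log2 difference of 3.16 (SE 1.55). With the share of RF identifiers as a covariate its difference was 0.96, and the Lv3NC libraries alone stood at 1526 and 36.5 CPM. The abundant novel_mir1 was at 30386 and 34103 CPM against 19870 and 16478 CPM (0.83, SE 0.35, 95% interval 0.04 to 1.62). novel_mir2 was at 15804 and 17242 CPM against 10120 and 4426 CPM (1.302, SE 0.52), and the difference was 0.71 without KD553 replicate 2. For novel_mir1 and novel_mir2 the sign against the control viruses was opposite in the 2 groups, with OV55666 minus Lv5NC at 0.82 and 0.73 and KD553 minus Lv3NC at -0.73 and -0.78. The difference of these effects did not pass the test (1.56 and 1.51, limma adjusted p = 0.75 for both).

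Smaller positive differences were shown by 4 other predicted members without overlap between the groups. novel_mir19 was at 172 and 154.5 CPM in OV55666 and 65.0 and 79.4 CPM in KD553 (1.17, SE 0.42). novel_mir662 was at 1391 and 1121 CPM against 832 and 355 CPM (1.20, SE 0.53), and the difference was 0.59 without KD553 replicate 2. novel_mir5 and novel_mir12 differed by 1.02 (SE 0.53) and 0.94 (SE 0.49), and without KD553 replicate 2 by 0.23 and 0.55.

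The predicted members novel_mir4 and novel_mir20 ran against the majority of their kind. novel_mir4 was at 1754 and 3188 CPM in OV55666 and 8204 and 6716 CPM in KD553, a log2 difference of -1.65 (SE 0.45, 95% interval -2.66 to -0.64), and -0.97 without OV55666 replicate 1. novel_mir20 was at 53.8 and 49.2 CPM against 212 and 182.8 CPM, with little spread in either group (-1.92, SE 0.52, 95% interval -3.09 to -0.74). Both had the smallest unadjusted p of the members at 50 CPM or more, 0.00482 and 0.00503 in limma, each with an adjusted p of 0.517. novel_mir4 was below Lv5NC in OV55666 (-0.80) and above Lv3NC in KD553 (0.83), and the control viruses differed by -0.02.

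The known members were also described by family and function, in 21 lists. No member of any list passed the test, and limma's smallest adjusted p of a list was 0.517. List medians are to be read against the median of -0.28 over known members and 0.17 over all tested miRNAs. Scaling to all reads raised the differences of abundant miRNAs by a near common step (let-7b-5p from -0.23 to 0.33), and where a list median changed sign under it both values are given. With the share of RF identifiers as a covariate, the medians of 7 lists changed sign, to 0.09 for miR-221 and miR-222, 0.03 for miR-29, 0.19 for the miR-15 and miR-16 list, 0.0042 for milk fat, 0.70 for the epithelial list, -0.54 for miR-125 and -0.17 for the DLK1-DIO3 cluster.

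**Figure D5:**
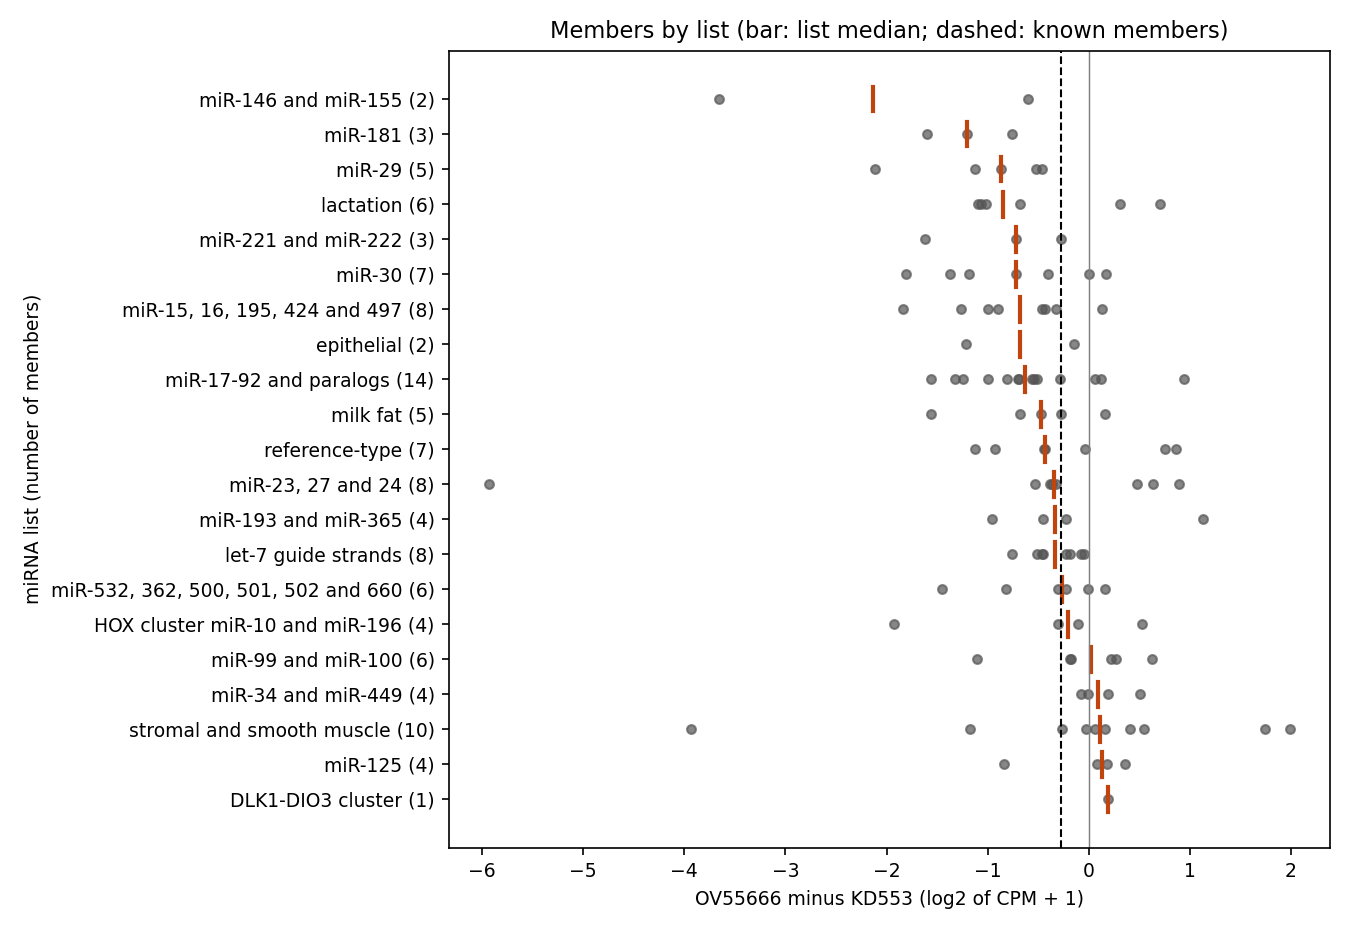
Each point is a known member of the list named on the left, with its OV55666 minus KD553 difference on the log2(CPM + 1) scale; red bars are list medians and the dashed line is the median of known members, -0.28. Most lists lie below 0, with the lowest medians for miR-146 and miR-155 (2 members) and miR-181 (3 members).

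The let-7 guide strands, which restrain growth-promoting transcripts, were all below 0 (8 of 8, median -0.34), but the median was 0.22 when scaled to all reads and -0.36 to -0.13 with 1 library left out. let-7b-5p, the second most abundant member, was at 152902 and 133902 CPM in OV55666 and 206475 and 135463 CPM in KD553 (-0.23, SE 0.40). let-7a-5p was at 47016 and 40991 CPM against 52131 and 41383 CPM (-0.08, SE 0.36). KD553 replicate 1 was the highest of the 4 in both, and the second replicates of the groups lay near each other. For the 6 let-7 hairpins with both arms among the members, each 5p arm had a negative and each 3p arm a positive difference, from 0.36 for let-7e-3p to 1.04 for let-7i-3p. This contrast was picked after the values were seen.

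The 3 miR-221 and miR-222 members were all lower in OV55666 (median -0.72, and -0.16 when scaled to all reads). The median was -0.19 without OV55666 replicate 1, -0.26 without KD553 replicate 2 and -1.19 without KD553 replicate 1. The member miR-221-3p was at 3381 and 4265 CPM against 4071 and 5188 CPM (-0.28, SE 0.39). Of 14 members of the miR-17-92 cluster and its paralogs, 11 were lower (median -0.63), and with 1 library left out the median was -1.14 to -0.14, nearest 0 without KD553 replicate 2. miR-93-5p of this list was at 1108 and 1235 CPM against 1600 and 2246 CPM, without overlap (-0.70, SE 0.42). The list of miR-15, miR-16, miR-195, miR-424 and miR-497, repressors of cell cycle genes, had 7 of 8 lower (median -0.68). This median was -0.23 without KD553 replicate 2, and -0.92 to -0.20 with any 1 library left out. miR-16b-5p stood at 8482 and 4833 CPM against 9983 and 14284 CPM (-0.90, SE 0.51).

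The miR-34 and miR-449 list, whose miR-34 genes are targets of p53, centred near 0 (0.09, 2 of 4 higher, and -0.067 to 0.55 with 1 library left out). miR-34a was at 7656 and 8578 CPM in OV55666 and 8107 and 8981 CPM in KD553 (-0.07, SE 0.35), with overlapping groups. The miR-193 and miR-365 list had 3 of 4 lower (median -0.34, and 0.22 when scaled to all reads), and the median was -0.41 to -0.019 with 1 library left out. miR-193b-3p was at 30294 and 58510 CPM against 49358 and 49157 CPM (-0.23, SE 0.45).

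All 5 miR-29 members, repressors of collagen genes, were lower (median -0.87, and -0.31 when scaled to all reads). Without KD553 replicate 2 the median was -0.35, and with another library left out -1.09 to -0.55. miR-29a-3p was at 4577 and 3057 CPM in OV55666 and 5863 and 7961 CPM in KD553, without overlap (-0.87, SE 0.48). Of 7 miR-30 members 5 were lower (median -0.72), and the median was -1.04 to -0.32 with 1 library left out, nearest 0 without KD553 replicate 2. miR-30a-5p, at 2337 and 2987 CPM against 3295 and 3712 CPM, did not overlap (-0.40, SE 0.51), while miR-30b-5p was high only in KD553 replicate 2, at 18.8 and 13.4 CPM against 14.9 and 218 CPM.

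All 3 miR-181 members were lower without overlap (median -1.20, and -0.53 when scaled to all reads), led by miR-181b-5p at 5077 and 3591 CPM against 6786 and 7669 CPM (-0.76, SE 0.47). Such a lack of overlap, with KD553 above, held for 54 of the 199 known members and 17.4% of all tested miRNAs. The median of the miR-181 list was -1.76 to -0.64 with 1 library left out, nearest 0 without KD553 replicate 2. In that library miR-181c-5p reached 63.1 CPM, against 7.51 to 10.2 CPM in the other 3 libraries. The miR-99 and miR-100 list, repressors of the mTOR pathway, centred at 0.02 with 3 of 6 higher, and at 0.087 to 0.23 with 1 library left out. Its miR-99b-5p was at 58664 and 45406 CPM in OV55666 and 31748 and 35202 CPM in KD553, without overlap (0.63, SE 0.39). The miR-125 list had 3 of 4 higher (median 0.13), and miR-125b-5p was the member below 0, at 7284 and 5679 CPM against 14470 and 9089 CPM (-0.83, SE 0.50). The miR-125 median was -0.51 without KD553 replicate 2, -0.12 without OV55666 replicate 1, and up to 0.29 with another library left out.

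For miRNAs named in milk fat synthesis, 4 of 5 were lower in OV55666 (median -0.47), but the median was 0.09 when scaled to all reads. It was -0.03 without KD553 replicate 2, -0.039 without OV55666 replicate 1 and -0.91 without KD553 replicate 1. miR-26a-5p was at 3920 and 5068 CPM against 4547 and 8385 CPM (-0.47, SE 0.42), and miR-103-3p at 216 and 344 CPM against 315 and 609 CPM (-0.68, SE 0.52). The groups overlapped for all 5. Of 6 lactation miRNAs, 4 were lower (median -0.85). The median was -0.25 without KD553 replicate 2, and it turned to 0.27 without OV55666 replicate 1. At a filter of 50 CPM only miR-130b-5p was left of this list, at 0.87. The most abundant, miR-130b-5p, was higher in OV55666 without overlap, at 668 and 638 CPM against 396 and 402 CPM (0.71, SE 0.41), while the 3p arm of its hairpin was at 33.98 and 14.95 CPM against 49.9 and 27.2 CPM (-0.68, SE 0.62).

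The list of miR-23, miR-27 and miR-24 had 5 of 8 lower (median -0.34, and 0.22 when scaled to all reads), with a median of -0.38 to -0.10 when 1 library was left out. miR-23b-3p was at 15427 and 13761 CPM in OV55666 and 21781 and 16524 CPM in KD553, without overlap (-0.38, SE 0.40). Of the HOX cluster list, 3 of 4 were lower (median -0.21, and 0.04 without TMM factors and 0.34 scaled to all reads), and the median was -0.21 to 0.0055 with 1 library left out. Here miR-196b was at 320 and 344 CPM against 407 and 415 CPM (-0.31, SE 0.49), and miR-10b-5p at 271 and 411.7 CPM against 211 and 255 CPM (0.52, SE 0.46), both without overlap and in opposite directions. The X-linked list of miR-532, miR-362, miR-500, miR-501, miR-502 and miR-660 had 5 of 6 lower (median -0.27, and 0.29 when scaled to all reads), with a median of -0.59 to 0.12 when 1 library was left out.

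Of the 2 innate-response members, miR-155-5p was at 943 and 612 CPM in OV55666 and 1269 and 1052 CPM in KD553, without overlap (-0.60, SE 0.49), and miR-146a is given above. Their median of -2.13 was -3.35 to -0.92 with 1 library left out. The stromal and smooth muscle list had 6 of 10 higher (median 0.11, and 0.081 to 0.39 with 1 library left out). Of its stromal members, miR-214-3p was at 4782 and 4668 CPM against 7331 and 4399 CPM (-0.27, SE 0.39). Only 2 epithelial miRNAs were members, miR-200b at 5.81 and 4.33 CPM against 2.66 and 11.1 CPM and miR-200c at 0.512 and 12.8 CPM against 2.25 and 33.6 CPM. Both overlapped between the groups, and the list median of -0.68 was 0.61 without KD553 replicate 2 and 0.22 without OV55666 replicate 1, and down to -1.97 with another library left out. Of the 42 identifiers of the imprinted DLK1-DIO3 cluster, 1 was a member, miR-154b-5p (0.19, SE 0.77, and -0.33 to 0.72 with 1 library left out).

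The miRNAs often used as references had 5 of 7 members lower (median -0.44, and 0.11 when scaled to all reads), with a median of -0.26 to -0.055 when 1 library was left out. miR-191-5p was at 21260 and 19058 CPM in OV55666 and 24398 and 30790 CPM in KD553, without overlap (-0.45, SE 0.38). The arms of miR-423 differed in sign. miR-423-3p was at 49481 and 69212 CPM against 53764 and 19193 CPM (0.87, SE 0.57), and miR-423-5p at 25214 and 6836 CPM against 33202 and 24582 CPM (-1.12, SE 0.65). In miR-423-3p the low library was KD553 replicate 2, without which the difference was 0.12. In miR-423-5p it was OV55666 replicate 2, without which the difference was -0.18.

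Arms were compared over all known members. The 89 members named 5p had a median log2 difference of -0.44, with 67 lower in OV55666, and the 88 named 3p a median of -0.01, with 44 lower. Of the 58 hairpins with both arms among the members, 30 had arms of the same sign (9 both higher and 21 both lower in OV55666) and 28 of opposite sign. The 5p arm was below the 3p arm in 31 of the 58, and the median gap between the arms of a hairpin was 0.73. The error of such a gap was not fitted, and the median SE of a single known member was 0.607.

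The direct difference is the sum of the OV55666 difference from Lv5NC and the Lv5NC difference from Lv3NC, less the KD553 difference from Lv3NC. For known members the median direct difference was -0.28, where the medians of these were 0.18, -0.09 and 0.32. For predicted members it was 0.71, where they were -0.15, 0.30 and -0.47. The 2 control viruses differed by a median of 0.50 in absolute value over known members and 0.80 over predicted members, beside 0.55 and 1.00 for the direct difference. The vectors and lncRNA55666 cannot be told apart in the direct difference.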

How the data were processed

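The deposited table held, per the file headers, a read count column and a TPM column for each library; missing marks fill 11323 of 22330 count cells (50.7%), for which reason the unit was recorded as other, and these marks were read as 0. The authors' TPM columns scale each count to 1 library total, per 1e6 reads and without a length term, and served only to find reads beyond the listed identifiers. The 2 Lv3NC TPM columns carry the same name and were not used. Aligner, miRNA annotation, and build: not given in the sources used here. KD553 columns were matched to the sample titles; the sample descriptions number them otherwise, which leaves the groups as they are.

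Counts were scaled to CPM of miRNA reads by TMM (0.828 to 1.18 over the 10 libraries, with 30% of ratios and 5% of levels trimmed). miRNAs at 5 CPM in 2 of the 10 libraries (448) were fitted with limma 3.58.1 and statmod 1.5.0 in R 4.3.3 on log2(CPM + 1), so that fold changes of low miRNAs are understated. The fit had 5 group means, an abundance trend, robust moderation and a residual df of 5. All p-values are two-sided, with Benjamini-Hochberg adjusted p at 0.05. With 2 libraries against 2, an exact permutation test of a single miRNA cannot go below p = 0.333. The comparisons with Lv5NC and Lv3NC came from the same fit. The fit was also run on simulated data. Their spread was set lower than that seen here and no library stood apart, so that run does not test the fit under these conditions. The plan named a count model if the columns passed as plain counts, and they did not, because of the missing marks.

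Named miRNAs are the 24 members of smallest p at a mean of 50 CPM or more (none passed the threshold), the 5 most abundant, the 3 most abundant of each list, and those at the edge of the filter; others are marked where named. The members, lists and comparisons were chosen with earlier results of these data known. Alternatives were other pseudocounts, filters, scalings, fits, a replicate block, voom weights, an RF covariate and leaving out each library.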

Additional observations from a re-analysis of the deposited data

Results flagged for a closer look

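miR-328-3p was the 1 miRNA for which the overexpression and knockdown effects, each against its own control virus, differed past the threshold. The difference was 13.55 on the log2 scale (SE 0.99, limma adjusted p = 9.5e-05, 448 miRNAs tested). OV55666 was above Lv5NC by 12.83 and KD553 was at -0.72 against Lv3NC, while Lv5NC was at -12.04 against Lv3NC. It was not called with voom weights (14.78, limma adjusted p = 0.0748), nor when reads beyond the listed identifiers were given to it (1.72, limma adjusted p = 0.749). That assignment was made after the data were seen, and the smaller difference followed from it.

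Reads on RF identifiers, which enter no miRNA comparison, took a mean of 21.2% ± 7.12 (SD, n = 2) of all reads in KD553. The means were 12.84% ± 1.24 in OV55666, 13.6% ± 3.36 in Lv3NC, 6.27% ± 2.06 in Lv5NC and 13.07% ± 3.30 in Blank. KD553 replicate 2 was at 26.27% and KD553 replicate 1 at 16.20%, near Lv3NC replicate 2 at 15.98%. No test was made of this share.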

How the results depend on the processing

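The number of miRNAs called between OV55666 and KD553 was 0 and became 1 (novel_mir672, higher) when scaled to all reads (adjusted p = 0.000136) and with a replicate block (adjusted p = 0.0402). With the KD553 numbers of the block exchanged it was 0, at 27 unadjusted p under 0.05 against 29 without a block and 56 with it. Same-numbered libraries of OV55666 and KD553 correlated at 0.172 in their deviations (-0.0213 to 0.319 over all pairs of groups, negative only for Blank with KD553). The labels do not say that same-numbered libraries were paired, and the main fit took no pairing. These values do not settle whether such libraries belong together, which was not tested. Leaving out a library gave 0 to 6 calls: miR-27b-3p without OV55666 replicate 1, and miR-223-3p, miR-424-5p, miR-146b-5p, miR-10a-5p, miR-340-5p and miR-30b-5p, all lower, without KD553 replicate 1. The number called for the difference of effects was 1, and 0 with voom weights and with reads beyond the listed given to miR-328-3p; leaving out a library gave 1 to 7. The cause of these shifts was not tested.

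The count of unadjusted p under 0.05, 29 at first, was 64 with no filter, 15 at 50 CPM, 43 scaled to all reads, 7 with the RF covariate, and 11 to 82 with a library left out. The known median of -0.28 became -0.16 with no filter, -0.11 at 50 CPM, -0.023 without TMM, 0.25 scaled to all reads, -0.37 with only the 4 libraries, -0.092 with known miRNAs only and -0.069 with the RF covariate, and ran from -0.30 to 0.018 with a library left out. The predicted median of 0.71 became 1.00 scaled to all reads and 0.095 with the RF covariate, and ran from 0.44 to 1.10. The share of tested miRNAs higher in OV55666, 56.5%, was 74.6% scaled to all reads and 64.1% without TMM. Of the list medians, 297 values stayed within the spread and 79 moved.

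Of 78 named miRNAs, 36 kept their sign in all alternatives that could be fitted; none lost or gained a call except those above. With no filter, the sign turned for let-7a-5p (0.011), miR-34a (0.018), miR-449a-5p (0.080), miR-532-5p (0.080). At 50 CPM, the sign turned for let-7a-5p (0.075), miR-34a (0.082), miR-449a-5p (0.14), miR-532-5p (0.14). Without TMM, the sign turned for let-7a-5p (0.17), let-7b-5p (0.027), let-7i-5p (0.068), miR-193b-3p (0.026), miR-200b (0.066), miR-34a (0.18), miR-362-5p (0.025), miR-449a-5p (0.24), miR-532-5p (0.24), miR-99a-5p (0.077). Scaled to all reads, the sign turned for let-7a-5p (0.48), let-7b-5p (0.33), let-7i-5p (0.37), miR-15b-5p (0.12), miR-16a-5p (0.23), miR-191-5p (0.11), miR-193b-3p (0.33), miR-193b-5p (0.11), miR-196b (0.25), miR-200b (0.20), miR-214-3p (0.29), miR-221-3p (0.28), miR-23a (0.24), miR-23b-3p (0.18), miR-26a-5p (0.088), miR-29b-5p (0.030), miR-29c-5p (0.087), miR-30a-5p (0.15), miR-34a (0.48), miR-362-5p (0.33), miR-449a-5p (0.51), miR-532-3p (0.25), miR-532-5p (0.55), miR-92a-3p (0.048), miR-99a-5p (0.38). With only the 4 libraries, the sign turned for miR-125b-3p (-0.017), miR-92b (-0.034). With known miRNAs only, the sign turned for let-7a-5p (0.10), miR-200b (0.020), miR-34a (0.11), miR-449a-5p (0.17), miR-532-5p (0.17), miR-99a-5p (0.0081). With voom weights, the sign turned for miR-200b (0.070), miR-449a-5p (0.0091). With the RF covariate, the sign turned for let-7i-5p (0.29), miR-103-3p (0.0042), miR-10a-5p (0.011), miR-125b-3p (-1.49), miR-154b-5p (-0.17), miR-15b-5p (0.74), miR-16a-5p (0.029), miR-181c-5p (0.053), miR-193a (-0.43), miR-200b (0.64), miR-200c (0.76), miR-221-3p (0.086), miR-221-5p (0.34), miR-26a-5p (0.11), miR-29b-5p (0.029), miR-30a-5p (0.090), miR-30b-5p (0.60), miR-34a (0.11), miR-34c-3p (-0.0072), miR-362-5p (0.12), miR-423-3p (-0.26), miR-449a-5p (0.45), miR-532-5p (0.35), novel_mir5 (-0.15). Summed by family and arm name, the sign turned for miR-10b-5p (-0.51), miR-125a-5p (-0.35), miR-199b-3p (0.25), miR-27a-3p (-0.94), miR-92b (-0.037), miR-99a-5p (0.41). Leaving out a library turned the sign of let-7a-5p (-0.25 to 0.085), let-7b-5p (-0.53 to 0.079), let-7i-5p (-0.56 to 0.19), miR-125a-5p (-0.11 to 0.72), miR-125b-3p (-1.07 to 1.23), miR-154b-5p (-0.33 to 0.72), miR-193b-3p (-0.70 to 0.49), miR-200b (-1.01 to 0.72), miR-200c (-2.93 to 0.57), miR-214-3p (-0.63 to 0.10), miR-221-3p (-0.45 to 0.14), miR-27a-3p (-0.63 to 1.90), miR-30a-5p (-0.58 to 0.018), miR-30b-5p (-3.70 to 0.086), miR-34a (-0.16 to 0.25), miR-34c-3p (-0.52 to 0.89), miR-362-5p (-0.43 to 0.038), miR-449a-5p (-0.61 to 0.59), miR-532-3p (-0.76 to 0.25), miR-532-5p (-0.13 to 0.19), miR-92a-3p (-1.68 to 0.91), miR-92b (-2.03 to 2.41), miR-99a-5p (-0.46 to 0.11). Summing near-identical miRNAs by sequence was not run, since no sequences were at hand, and edgeR and DESeq2 were not run.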
